A study of Mus musculus with 2 samples.

Results

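Mir183, Mir96 and Mir182 are 3 microRNA genes that lie together on mouse chromosome 6, and their levels were read from small RNA of the embryonic intestine. They were chosen by name, as the rows whose Ensembl identifier maps to one of these symbols in the GENCODE annotation of GRCm38, and make up 3 of the 1973 genes counted. The series holds 1 group of 2 libraries, labelled biological replicates 1 and 2. Both come from the intestine of B6NCrl mouse embryos at 14.5 days of development, without any treatment or mutation named in the labels, and from total RNA with inserts below 30 bases. By the labels each sample is one pup's intestine, yet its sex is given as pooled male and female. Replicate 1 was collected on day 17 of a month and replicate 2 on day 15. Collection day and replicate cannot be told apart, and with 1 group no condition was compared with another.

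A microRNA is cut from a hairpin precursor and pairs with messenger RNAs through its seed, bases 2 to 8, which largely decides the targets it represses. Mir183, Mir96 and Mir182 are known as the microRNAs of sensory cells: they are abundant in photoreceptors, in the hair cells of the inner ear and in other sensory epithelia, and changes in the seed of Mir96 cause hearing loss. They are thought to be cut from one long primary transcript. They are also found in several epithelia and in neuroendocrine cells.

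The mature sequences show why the 3 genes are regarded as one family, and are printed first because their seeds differ by single bases. Each is the arm named 5p in the RefSeq records for GRCm38.p6, written 5′ to 3′ with the seed in capitals, and the members lie on the minus strand of chromosome 6. The last line is miR-1271-5p, from chromosome 13, the only other one of 1738 mature mouse sequences in the table that holds the same bases 2 to 8 or 2 to 7 as one of the members.

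Mir182: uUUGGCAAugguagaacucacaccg

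Mir96: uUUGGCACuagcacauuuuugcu

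Mir183: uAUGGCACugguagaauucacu

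miR-1271-5p: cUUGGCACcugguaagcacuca

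Positions are counted from 1 at the 5′ end, and a change is written with the base of the gene named first. From Mir182 to Mir96 the seed differs by A8C alone, so that bases 2 to 7 are shared. From Mir96 to Mir183 it differs by U2A alone, and from Mir182 to Mir183 by both U2A and A8C. Outside the seed the likeness was ordered differently. Over the first 22 bases Mir182 and Mir183 were identical at 18 positions, with a shared run of 8 bases, while Mir96 matched Mir183 at 13 and Mir182 at 12. Mir96 thus has a seed close to both relatives and a different 3′ part, in which U is frequent: U made up 43.5% of its bases, against 31.8% in Mir183 and 24.0% in Mir182. The seed of miR-1271-5p is that of Mir96, with 10 of 22 positions identical in all.

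The hairpins are printed from RefSeq with both mature arms in capitals, because the counts are per gene and do not separate the arms.

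Mir183 hairpin: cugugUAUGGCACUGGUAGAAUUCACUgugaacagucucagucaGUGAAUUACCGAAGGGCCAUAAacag

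Mir96 hairpin: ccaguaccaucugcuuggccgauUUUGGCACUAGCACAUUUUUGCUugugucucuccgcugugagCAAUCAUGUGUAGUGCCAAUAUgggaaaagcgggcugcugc

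Mir182 hairpin: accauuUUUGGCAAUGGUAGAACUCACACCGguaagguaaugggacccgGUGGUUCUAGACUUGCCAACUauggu

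Mir183 (ENSMUSG00000065619.2; chr6:30169668-30169737, GRCm38) comes first in the direction of transcription. Mir96 (ENSMUSG00000065586.1; chr6:30169446-30169551) follows after 116 bases, and Mir182 (ENSMUSG00000076361.1; chr6:30165918-30165992) after a further 3453. The 3 hairpins span 3820 bases, and GENCODE release M21 annotates no other gene over that span on either strand, so they are intergenic there. The nearest gene is Rncr4, a long noncoding RNA on the plus strand that begins 3155 bases upstream of Mir183. The nearest protein-coding genes are Nrf1, 12459 bases away beyond Mir182, and Ube2h, 41551 bases away on the other side. No hairpin shared more than 14 identical bases in a row with any of the 2198 other microRNA sequences of GENCODE M21, in either orientation.

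**Figure D1:**
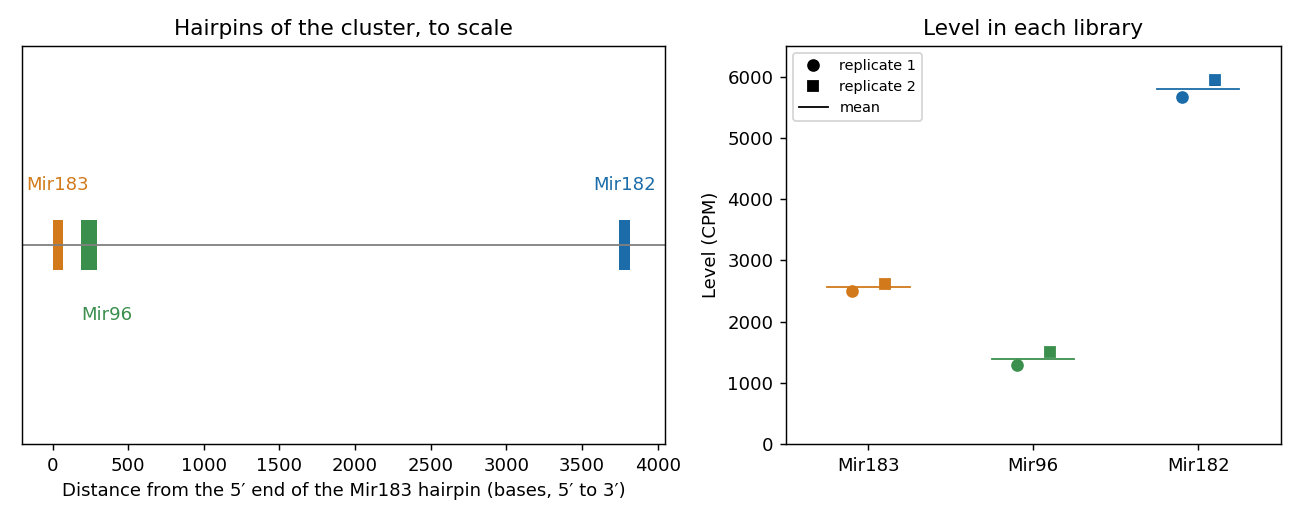
Left, the hairpins to scale along the minus strand, in bases from the 5′ end of Mir183; right, the level of each gene in CPM (counts scaled to a library total of 1000000) in replicate 1 (circles) and replicate 2 (squares), with the mean as a line and 95% counting intervals smaller than the symbols. Mir183 and Mir96 lie close together and Mir182 lies 3453 bases beyond Mir96, while the levels run from Mir182 through Mir183 down to Mir96 in both libraries.

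All 3 genes were well expressed in the embryonic intestine, and Mir182 led. Levels are CPM, the reads on the gene's own strand scaled to a library total of 1000000, and intervals are exact binomial 95% intervals that cover counting error only. Mir182 had 85415 counts in replicate 1 and 23180 in replicate 2, which are 5660 CPM (5623 to 5698) and 5938 CPM (5862 to 6015). Mir183 had 37745 and 10208 counts, or 2501 CPM (2476 to 2527) and 2615 CPM (2565 to 2666). Mir96 had 19409 and 5871 counts, or 1286 CPM (1268 to 1304) and 1504 CPM (1466 to 1543). The ranges of the 3 genes over the libraries did not overlap, so the order Mir182, Mir183, Mir96 was the same in both. No test of the order was run, since with 2 libraries an exact test cannot reach 0.05.

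As means, Mir182 stood at 5799 ± 197 CPM (SD, n = 2), Mir183 at 2558 ± 80.5 CPM and Mir96 at 1395 ± 154 CPM. These put them at ranks 37, 66 and 90 among the 1973 genes. A gene with 10 or more counts in each library is called detected here, and 363 were. Together the 3 genes took 0.945% of the counts in replicate 1 (0.940 to 0.950%) and 1.01% in replicate 2 (0.996 to 1.02%), a mean of 0.975 ± 0.0431%. Ligation and PCR favour some small RNAs over others, so an order of counts is not an order of molecules. In tissue RNA, a low level in many cells and a high level in few cannot be told apart, and neither can fewer cells of a type and less RNA per cell.

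**Figure D2:**
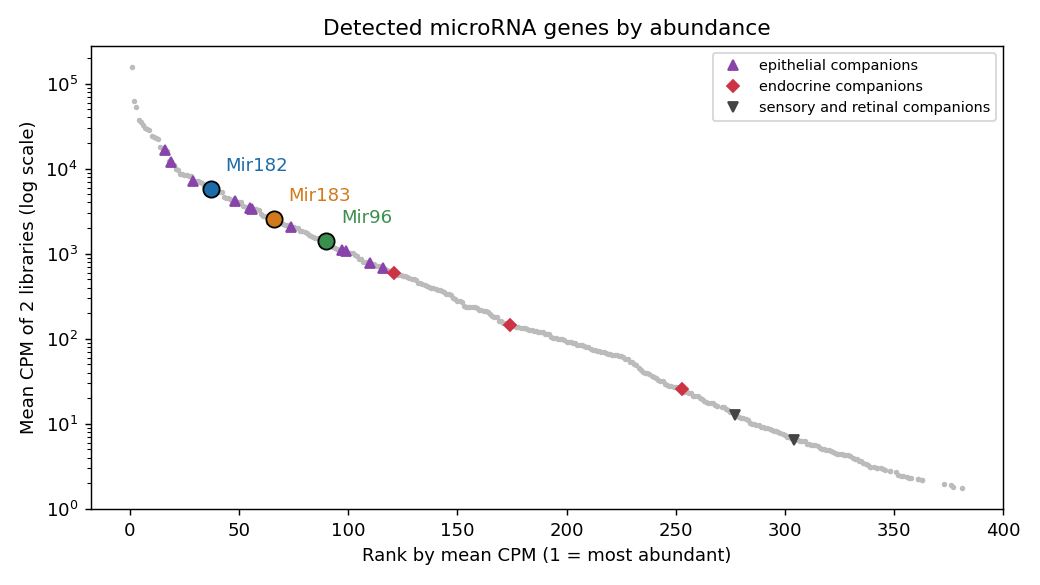
Mean CPM of the 2 libraries (log scale) against abundance rank for the 363 detected genes (grey), with the 3 cluster genes as circles and the detected genes of 3 companion lists as triangles and diamonds. Mir182, Mir183 and Mir96 sit at ranks 37, 66 and 90, among the epithelial companions, and Mir375, an endocrine companion, is hidden behind Mir182 at rank 38.

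The genes whose levels lay nearest to each member were of varied kinds. Nearness was the Euclidean distance in log2(CPM + 1) over the 2 libraries, which mostly reflects the level itself. Nearest to Mir182 were Mir541 (6088 ± 133 CPM), Mir652 (6173 ± 27.0 CPM) and Mir181c (6147 ± 119 CPM). Nearest to Mir183 were Mir15a (2610 ± 137 CPM), Mir455 (2723 ± 97.6 CPM) and Mir361 (2370 ± 44.6 CPM). Nearest to Mir96 were Mirlet7b (1444 ± 150 CPM), Mir28a (1370 ± 1.45 CPM) and Mir107 (1493 ± 62.5 CPM). The ranges of Mir182 and Mir541 did not overlap, whereas those of Mir96 and Mirlet7b did. Mir375, at the rank just after Mir182, ranged from 3497 to 8059 CPM, so the order of these neighbours differed between the libraries.

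The seed relative of Mir96 was not seen. The gene of miR-1271, listed as Gm24195 (ENSMUSG00000080454.2) within the gene Arl10, had 0 counts on either strand in both libraries. With 3 counts as the limit that a count of 0 allows, its level was at most 0.199 CPM in the deeper replicate 1 and at most 0.769 CPM in replicate 2. Mir96, with the same seed, stood above 1000 CPM in both.

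Within the cluster, Mir182 held 59.5 ± 0.613% of the counts, Mir183 26.2 ± 0.335% and Mir96 14.3 ± 0.948% (SD, n = 2). The proportion between Mir182 and Mir183 was nearly the same in the 2 libraries. Mir182 exceeded Mir183 by 2.26-fold in replicate 1 (2.24 to 2.29) and by 2.27-fold in replicate 2 (2.22 to 2.32). The log2 ratios differed by 0.005 (exact 95% interval -0.033 to 0.043), and Fisher's exact test found no difference (two-sided p = 0.799, adjusted over the 3 pairs 0.799). The interval corresponds to a ratio of 0.977 to 1.03 between the libraries.

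Mir96 did not keep its proportion to the others. Its part of the cluster was 13.6% in replicate 1 (13.4 to 13.8%) and 15.0% in replicate 2 (14.6 to 15.3%). Mir182 exceeded Mir96 by 4.40-fold in replicate 1 (4.33 to 4.47) and by 3.95-fold in replicate 2 (3.84 to 4.06), a log2 change of -0.16 (-0.20 to -0.11; Fisher's exact test, adjusted p = 2.73e-10). Mir183 exceeded Mir96 by 1.94-fold (1.91 to 1.98) and by 1.74-fold (1.68 to 1.80), a log2 change of -0.16 (-0.21 to -0.11; Fisher's exact test, adjusted p = 2.97e-09). These tests compare 2 libraries and not conditions, and they cover counting error only. The ratios do not depend on how the libraries are scaled. A change of this size was not particular to Mir96. Over the 6 clusters with 3 detected genes compared below, the largest change of a ratio between members had a median of 0.24 in log2. The pair that kept its ratio, Mir182 and Mir183, is the pair with the most similar mature sequences printed above and is also the pair farthest apart on the chromosome. Whether sequence or position plays a part was not tested.

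**Figure D3:**
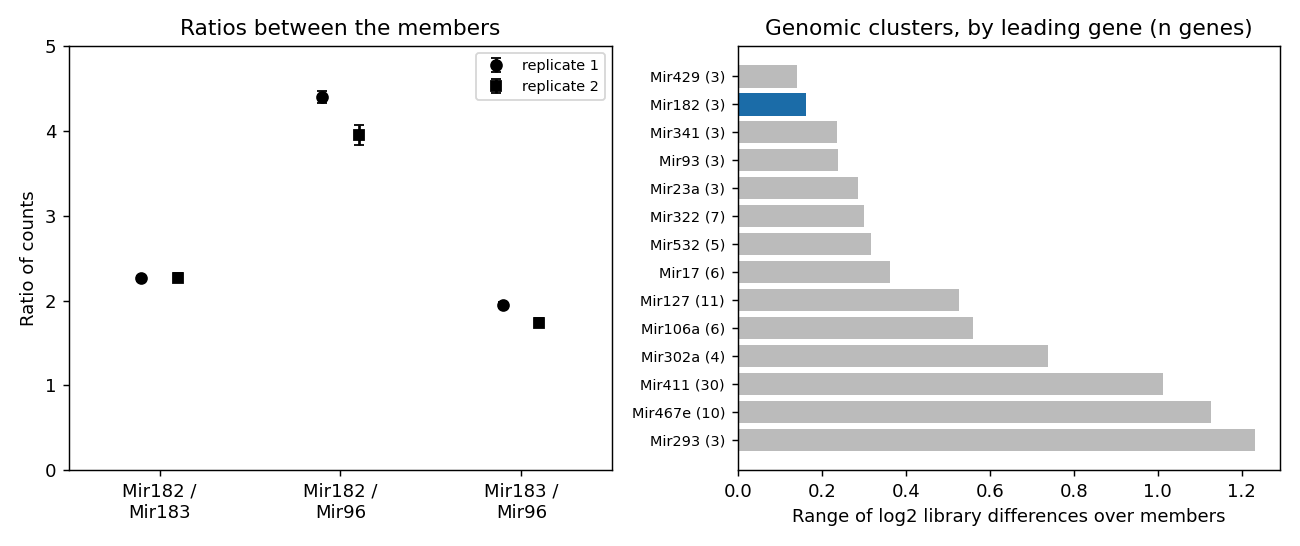
Left, ratio of counts between the members in replicate 1 (circles) and replicate 2 (squares) with exact 95% counting intervals; right, for 14 genomic clusters, the range of the log2 difference between the libraries over the detected genes of the cluster (number of genes in parentheses). The ratio of Mir182 to Mir183 coincides in the libraries while both ratios to Mir96 are lower in replicate 2, and the Mir182 cluster (blue) has the smallest range but 1.

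Compared with other microRNA clusters, these genes were close to one another in level. In 14 clusters of at least 3 detected genes on one strand, each within 10 kb of the next, the most abundant gene exceeded the least abundant by a median of 73.3-fold, and by a median of 11.8-fold in the 6 clusters with 3 detected genes. For Mir182 over Mir96 the excess of the means was 4.16-fold, the second smallest after Mir293 over Mir292 (2.17-fold). Next came Mir532 over Mir362 (8.20-fold) and Mir93 over Mir25 (8.61-fold), and in the epithelial cluster of Mir429, Mir200b and Mir200a, which has the same number of genes, Mir429 exceeded Mir200a by 15.1-fold. In summed level the cluster was the 8th of the 14, at 9753 CPM, below the 24732 CPM of the Mir429 cluster. The log2 differences between the libraries spanned 0.16 over Mir182, Mir183 and Mir96. This was again the second smallest span, after 0.14 in the Mir429 cluster, against a median of 0.34 over the 14 and of 0.24 over the 6 with 3 detected genes. More genes, or genes of few counts, can widen both kinds of range. Genes below the count minimum were left out, which can narrow them. In the Mir293 cluster, with a sum of 13.6 CPM, Mir292 was near the minimum at 34 and 14 counts. Other genes of that locus fell below the minimum, so its 2.17-fold covers only the detected genes. In some of the other clusters the least abundant gene is, by its name, a numbered copy. Multiply aligned reads count for no gene, so the folds of those clusters, and the medians, may be too large. No test was made between clusters.

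Between the libraries, all 3 genes were slightly higher in replicate 2 when scaled to the library total. The log2 difference was 0.23 for Mir96 (0.18 to 0.27), 0.07 for Mir182 (0.05 to 0.09) and 0.06 for Mir183 (0.03 to 0.10). In fold these are 1.17, 1.05 and 1.05. Each passed a two-sided exact binomial test of the 2 counts against the ratio of the library totals, adjusted over the 363 detected genes by the Benjamini-Hochberg method (adjusted p = 3.18e-24 for Mir96, 5.36e-10 for Mir182 and 0.000239 for Mir183). That 3 of 3 were called says little about them, since 43.8% of all detected genes were called in either direction and 29.8% as higher in replicate 2. Among the 102 genes with a mean of at least 1000 CPM, where all 3 lie, 88.2% were called. The absolute difference of Mir182 was exceeded by 74.1% of the detected genes, that of Mir183 by 75.5% and that of Mir96 by 34.4%.

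The direction for Mir182 and Mir183 rested on the scaling. With the trimmed-mean factors of edgeR, the log2 differences were -0.01 and -0.02 for Mir182 and Mir183, and with median-of-ratios size factors -0.02 and -0.03, none past the threshold. Mir96 stayed higher in replicate 2, at 0.14 and 0.13, past the test in both cases (exact binomial test, adjusted p = 2.1e-10 and 4.23e-09). Of the 159 genes called over the whole table, 108 were higher and 51 lower in replicate 2 with library totals. With the trimmed-mean factors the split was 58 higher and 84 lower, with the size factors 54 and 90, and with the most abundant gene, Mir143, left out of the totals 87 and 67.

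**Figure D4:**
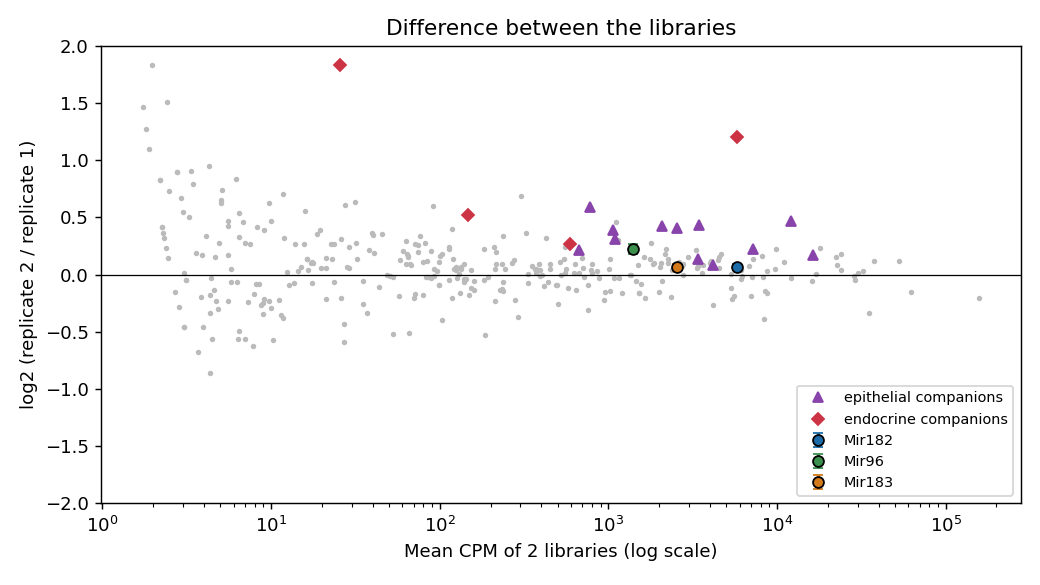
Log2 difference between the libraries against mean CPM (log scale) for 362 of the 363 detected genes (grey; Mir802, at 6.42, lies outside the axis), with the cluster genes as circles whose 95% counting intervals are at most slightly larger than the symbols, epithelial companions as triangles and endocrine companions as diamonds. Mir182 and Mir183 lie near the line at 0, Mir96 lies at 0.23, and most of the companions lie higher.

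Epithelial microRNAs were higher in replicate 2, all 12 listed by more than Mir182 and Mir183, though Mir203 only slightly. Of 12 epithelial companions, all 12 were detected and called higher in replicate 2, where 29.8% of all detected genes were called higher and most genes this abundant were called. They had a median log2 difference of 0.35, against 0.06 over all detected genes. With the trimmed-mean and size factors 11 of the 12 were called higher, with medians of 0.27 and 0.26 against -0.02 and -0.04 over all genes, and Mir203 turned to -0.002 and -0.01. Among the 12, Mir200c of the miR-200 family, known for keeping cells epithelial, had 10177 and 14105 CPM, and Mir215 of the intestinal epithelium 2933 and 3954 CPM. The smallest difference was that of Mir203 (0.08), a microRNA of stratified epithelium, with 4031 and 4263 CPM. The direction of these lists was already known from these libraries when they were chosen.

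Set against the summed counts of the 5 miR-200 genes, the cluster was lower in replicate 2. The ratio of the cluster to the miR-200 sum was 0.270 in replicate 1 and 0.234 in replicate 2, a log2 change of -0.20 (counting interval -0.22 to -0.18). Mir182 changed by -0.22 (-0.25 to -0.20) and Mir183 by -0.23 (-0.26 to -0.20) relative to that sum. Mir96 changed by -0.07 (-0.11 to -0.02). The genes of the sum differed in this. Mir429 (log2 difference 0.17) and Mir200b (0.22) did not exceed Mir96, while Mir200a (0.32), Mir141 (0.43) and Mir200c (0.47) did. A difference like that of Mir96 (0.23) was not particular to epithelial genes, since Mir214, known from mesenchyme, had 0.22. Relative to Mir192, Mir194-1, Mir194-2 and Mir215, known from intestinal epithelium, the cluster went from a ratio of 1.05 to 0.885, a log2 change of -0.25 (-0.27 to -0.23). Mir194-1 and Mir194-2 share at least 20 identical bases, so that sum is uncertain. These ratios do not depend on the scaling. They were added after the values had been seen and are a description of these 2 libraries. Fisher's exact tests were run on them, but cover counting error only and are not used as support.

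The endocrine microRNAs were higher in replicate 2 by widely different amounts. The endocrine companions, led by Mir375, a microRNA of endocrine cells of gut and pancreas, gave sums of 4169 and 8923 CPM in replicates 1 and 2, and 4 of 4 were called higher, against 29.8% of all detected genes (median log2 difference 0.86). Mir375, which makes up most of the sum, had 3497 and 8059 CPM. Mir7b had 541 and 651 CPM, a log2 difference of 0.27 that is close to that of Mir96. Mir7-1 (120 and 172 CPM) and Mir7-2 (11.3 and 40.2 CPM) share sequence, so their separate levels are uncertain. The ratio of the cluster to this sum went from 2.27 to 1.13, a log2 change of -1.01 (-1.03 to -0.98). This ratio is likewise a description, and the Fisher's exact test run on it is not used as support.

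Of the sensory and retinal companions, few were found. Of 8 listed, 7 were in the table and 2 were detected: Mir204, a microRNA of retinal pigment epithelium, with 13.1 and 12.3 CPM, and Mir9-3, a neural microRNA, with 5.30 and 7.69 CPM. Neither was called. Mir124a-2, Mir124a-3, Mir211 and Mir9-2 had no count in either library, and Mir124a-1 had 1 and 0. The cluster exceeded the list's sum 511-fold in replicate 1 and 503-fold in replicate 2. The Mir9 genes share sequence with one another, as do the Mir124a genes, and multiply aligned reads count for no gene, so these low values and the ratios are uncertain.

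Markers of the cell types in the sample moved with the library difference as follows. The 5 miR-200 genes gave sums of 35028 and 42892 CPM in replicates 1 and 2, and the 4 genes of intestinal epithelium 8980 and 11362 CPM. Every gene of both lists was detected and higher in replicate 2, as were 225 of all 363 detected genes when scaled to library totals. The smooth muscle pair had 171529 and 149642 CPM, where Mir143 went from 167962 to 146045 CPM and Mir145a had 3567 and 3597 CPM (adjusted p = 0.512, exact binomial test). The mesenchymal list had 9708 and 11205 CPM, where Mir214 went from 9071 to 10600 CPM and Mir199b, called lower, from 514 to 482 CPM. The Mir199 genes share sequence, so their separate levels are uncertain. Endothelial Mir126a was at 23478 and 24174 CPM. The erythroid sum went from 258 to 409 CPM over 3 detected genes. Most of it was Mir451a (231 and 374 CPM), the only 1 of the 3 that was called. Mir223, the only 1 of 2 listed leukocyte genes in the table, went from 379 to 472 CPM. Mir122 of liver went from 39.8 to 51.0 CPM. The neuronal list, of which Mir124a-2, Mir124a-3 and Mir9-2 were at 0, had 2047 and 2324 CPM, nearly all from Mir137. Striated muscle genes, with Mir133a-1 at 0, had 10.9 and 9.48 CPM, nearly all from Mir206. The Mir124a, Mir9, Mir133a and Mir1a genes each share 20 or more identical bases with another copy, so their values of 0 and both sums may miss reads and do not show that a cell type was absent. Thus the labelled tissue showed the microRNAs of gut epithelium and smooth muscle, the latter nearly all Mir143, and also those of mesenchyme and endothelium. Their part in the difference of Mir96 between the libraries was not tested.

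Nearly all reads at the 3 genes lay on the annotated strand. The opposite strand of Mir182 had 8 counts in replicate 1 and 1 in replicate 2, and that of Mir183 had 8 and 5. Mir96 had 0 in both, which allows up to 0.0155% of its reads in replicate 1 and 0.0511% in replicate 2. Over all genes pooled, the opposite strand held 2.89% and 3.10% of the reads. That share does not describe each gene: Mir429, Mir214 and Mir375 had 0 counts there in both libraries, and Mir126a had 115 and 38.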

How the data were processed

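The authors deposited whole-number counts of reads per gene, 1 table per library, without normalization. From the values, the columns hold both strands, the gene's own strand and the opposite strand, the first being the sum of the others for every gene. Reads were aligned to mm10 and counted on GENCODE release M4, per the file descriptions deposited with the tables. The sources used here do not give the aligner, trimming or counting program. Reads on the gene's strand totalled 15090126 and 3903472 in replicates 1 and 2, so replicate 1 was 3.87 times deeper. These are 57.2% and 55.7% of the reads in the tables. Reads that did not align (12.4% and 13.8%), aligned more than once (26.5% and 26.6%) or met no gene (2.20% and 2.10%) entered no total. The tables record no molecular identifiers, so PCR copies count as reads.

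Counts were divided by those totals. Symbols came from GENCODE M21 (1894 of 1973 identifiers matched, the 3 members with the same version) and sequences from RefSeq (GRCm38.p6, all 3 members matched). Genes share sequence when their GENCODE M21 sequences hold 20 identical bases in a row. Tests were exact binomial and Fisher's exact tests (scipy 1.17.1) with Benjamini-Hochberg adjustment at 0.05. The binomial tests were adjusted over genes with at least 10 counts in both libraries. Fisher's tests were adjusted over the 3 member pairs, and over 12 ratios of the cluster or a member to a list. The binomial test was tested on simulated data drawn with counting error only, so without the further variation between real libraries. Scaling factors came from edgeR 4.0.16. Named genes were the members, genes sharing a seed, the 3 nearest genes by level, the leading gene of each cluster compared and the companion lists, with the marker lists beside them; Mir802, Mir292, Mir362 and Mir25 were named after their values were seen. Members and lists were chosen with earlier results of these data known. Alternatives were the strand, the totals, the scaling, depth, the count minimum, the cluster distance and leaving out each library.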

Additional observations from a re-analysis of the deposited data

Results flagged for a closer look

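Reads on the strand opposite to a member, which enter no level above, passed the 3 counts that a count of 0 would allow in 3 cases. They were 8 counts at Mir182 in replicate 1, 8 counts at Mir183 in replicate 1 and 5 counts at Mir183 in replicate 2. These are 0.00937%, 0.0212% and 0.0490% of the reads at the gene, with exact 95% intervals of 0.00404 to 0.0185%, 0.00915 to 0.0417% and 0.0159 to 0.114%. No control library exists to set them against, and their source was not tested.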

How the results depend on the processing

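Leaving out 1 of 2 libraries always gives a value within 1 SD of their mean, so it shows nothing about stability. Of 40 other values recomputed under an alternative, apart from counts of genes, 30 kept direction and side of the test or stayed within 1 SD. With edgeR's trimmed-mean factors the log2 difference between the libraries became -0.0134 for Mir182 and -0.0184 for Mir183, and with median-of-ratios size factors -0.0237 and -0.0286, a change of direction in each case; both scalings shift every gene, by -0.08 and -0.09. Without the most abundant gene in the totals the log2 difference of Mir183 was 0.0267 and no longer passed (exact binomial test, adjusted p = 0.184), while the levels rose by construction to 6878 CPM for Mir182, 1654 CPM for Mir96 and 3034 CPM for Mir183, and the summed share to 1.16%. With replicate 1 thinned to the depth of replicate 2, the mean log2 ratio of Mir182 over Mir183 was 1.19 against 1.18, a move beyond its SD of 0.004. The difference of Mir96 kept its direction and passed under the 6 alternatives run, from 0.13 to 0.24 (exact binomial test, adjusted p at most 4.23e-09). The number of genes called ranged from 129 of 344 tested to 169 of 374, against 159 of 363. With at least 1 count in either library it was 152 of 768, and with at least 50 counts in both 156 of 277. The share called thus depended on the count minimum. Without 1 library at a time the summed share was 0.945 and 1.01%. No paired analysis was possible because there is only 1 group. Differences between the libraries need both, so leaving one out gave no value for them. With 2 libraries from different days, the spread between animals is poorly known.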
